A study of Mus musculus with 36 samples.

Results

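The 6 genes described here, Rgs14, Amigo2, Pcp4, Cacng5, Map3k15 and Necab2, are markers of CA2 pyramidal cells, read as a sign of where the hippocampal fields CA3 and CA1 were cut. They were chosen by symbol, after the Ensembl identifiers of the deposited count table had been matched to gene names, and all 6 were found among its 37315 genes. Messenger RNA had been sequenced from wild-type BL-6 mice in 4 dissected regions: the fields CA3 and CA1 and the medial (MEC) and lateral (LEC) entorhinal cortex. Within each region 3 libraries came from mice given a foot shock (fear), 3 from mice exposed to the context and 3 from mice left in the home cage, which made 12 groups of 3 and 36 libraries. Every group was WT and carried no other allele or agent. All mice were housed singly and handled for 3 minutes a day over 5 days, and tissue was taken 90 minutes after the behaviour. The labels name no CA2 sample, do not say on which side of a cut CA2 fell, and give neither age nor sex. Since no label links a numbered library to an animal, regions could have been taken from the same mice, and the spread behind each p-value is that of the libraries alone.

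CA2 is the short stretch of the hippocampus between CA3 and CA1. Its pyramidal cells are known for social memory, for resistance to long-term potentiation at their proximal dendrites, and for a set of genes that outlines the field in tissue sections. In a dissection without a CA2 sample, a strip of CA2 goes with CA3, with CA1 or with both, and none of the 6 genes is exclusive to CA2 in the brain.

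By role, Rgs14 (ENSMUSG00000052087, GRCm38 chromosome 13, 55369732 to 55384687, plus strand) encodes a regulator of G protein signalling that scaffolds Gi/o subunits and H-Ras and restrains potentiation in CA2. Amigo2 (ENSMUSG00000048218, chromosome 15, 97244125 to 97247287, minus strand) encodes a leucine-rich repeat adhesion molecule. Pcp4 (ENSMUSG00000090223, chromosome 16, 96467606 to 96525793, plus strand) encodes a small calmodulin-binding peptide, and Necab2 (ENSMUSG00000031837, chromosome 8, 119446719 to 119472640, plus strand) a neuronal calcium-binding protein that binds the adenosine receptor encoded by Adora2a and the glutamate receptor mGluR5. Cacng5 (ENSMUSG00000040373, chromosome 11, 107874605 to 107915055, minus strand) encodes an auxiliary subunit of AMPA receptors, and Map3k15 (ENSMUSG00000031303, chromosome X, 159988433 to 160123351, plus strand) a kinase of the ASK family at the top of a MAP kinase cascade.

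Each library held between 21871412 and 68974340 counts. Levels are given as CPM, the count of a gene scaled by the TMM-adjusted size of its library. The 7 genes of a CA3 pyramidal list summed to 404 to 617 CPM in CA3 and 83.6 to 228 CPM in CA1. The 8 genes of a CA1 pyramidal list summed to 156 to 443 CPM in CA3 and 612 to 1810 CPM in CA1. Set against each other, both fields thus matched their labels. The CA1 list did not set CA1 apart from the entorhinal cortex, with 910 to 1179 CPM in MEC and 797 to 1422 CPM in LEC. Dentate granule genes (7) summed to 42.0 to 249 CPM in CA3 and 123 to 506 CPM in CA1, and no gene of these 3 lists was at 0 in either field. Home cage 2 stood apart in both fields, with the highest oligodendrocyte sums of CA3 (11538 CPM) and CA1 (11285 CPM), and context 2 of CA3 had the lowest CA3 list sum of its field (404 CPM). Results that rest on these libraries were also computed without home cage 2 and context 2 of CA3 and CA1. In bulk tissue, fewer cells of a type and less RNA per cell cannot be told apart.

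All 6 members had counts in all 36 libraries, and 4 of them (Rgs14, Amigo2, Map3k15 and Necab2) had their highest regional mean in CA3. Rgs14 was about level between the fields, with 57.8 to 158 CPM in CA3 (median 124), 62.7 to 161 CPM in CA1 (median 108), 24.7 to 50.4 CPM in MEC (median 31.6) and 36.6 to 78.2 CPM in LEC (median 54.9), 9 libraries each. Its ranges coincided in CA3 and CA1, and the lowest hippocampal library lay above the highest MEC library.

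Amigo2 separated the fields. In CA3 it had 69.6, 55.5 and 84.1 CPM in fear libraries, 92.5, 64.7 and 88.7 CPM in context libraries and 60.5, 44.1 and 54.0 CPM in home cage libraries. In CA1 it had 10.9, 37.7 and 30.8 CPM in fear libraries, 9.93, 7.38 and 8.87 CPM in context libraries and 5.14, 11.8 and 15.9 CPM in home cage libraries. The lowest CA3 library was above the highest CA1 library, and within CA1 fear 2 and fear 3 stood above the other 7. In MEC it reached 1.92 to 5.87 CPM and in LEC 3.09 to 16.7 CPM.

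Necab2 followed the same order in the hippocampus. In CA3 it had 95.6, 83.6 and 118 CPM in fear libraries, 129, 41.8 and 76.7 CPM in context libraries and 125, 101 and 88.3 CPM in home cage libraries. In CA1 it had 20.2, 40.1 and 39.2 CPM in fear libraries, 18.9, 18 and 17.4 CPM in context libraries and 18.8, 22.2 and 29.8 CPM in home cage libraries. The fields did not overlap, although the lowest CA3 library, context 2, came within 2 CPM of the highest CA1 library, fear 2. Necab2 was also abundant in MEC (71.0 to 126 CPM) and LEC (45.1 to 99.9 CPM).

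Pcp4 was higher in the entorhinal cortex than in either field. It had 5.89 to 11.1 CPM in CA3 (median 8.20), 1.86 to 20.3 CPM in CA1 (median 7.18), 17.3 to 33.4 CPM in MEC (median 21.0) and 18.4 to 27.8 CPM in LEC (median 23.1). Its CA1 libraries were spread 10.9-fold, from context 2 to home cage 2, against 1.88-fold among the CA3 libraries. Outside the hippocampus Pcp4 is a known gene of deep cortical layers.

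Cacng5 had 9.62 to 19.6 CPM in CA3 (median 12.6), 7.23 to 22.5 CPM in CA1 (median 12.6), 6.61 to 15.5 CPM in MEC (median 14.4) and 12 to 27.7 CPM in LEC (median 22.0). These ranges overlapped in all 4 regions. Map3k15 was the lowest member, with 3.62 to 5.96 CPM in CA3, 0.272 to 5.65 CPM in CA1, 1.34 to 4.06 CPM in MEC and 1.64 to 4.50 CPM in LEC. Its 9 CA3 libraries lay within 1.65-fold of each other, whereas its CA1 libraries spanned 20.8-fold, and the lowest of them, context 2, rested on 7 counts.

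**Figure D1:**
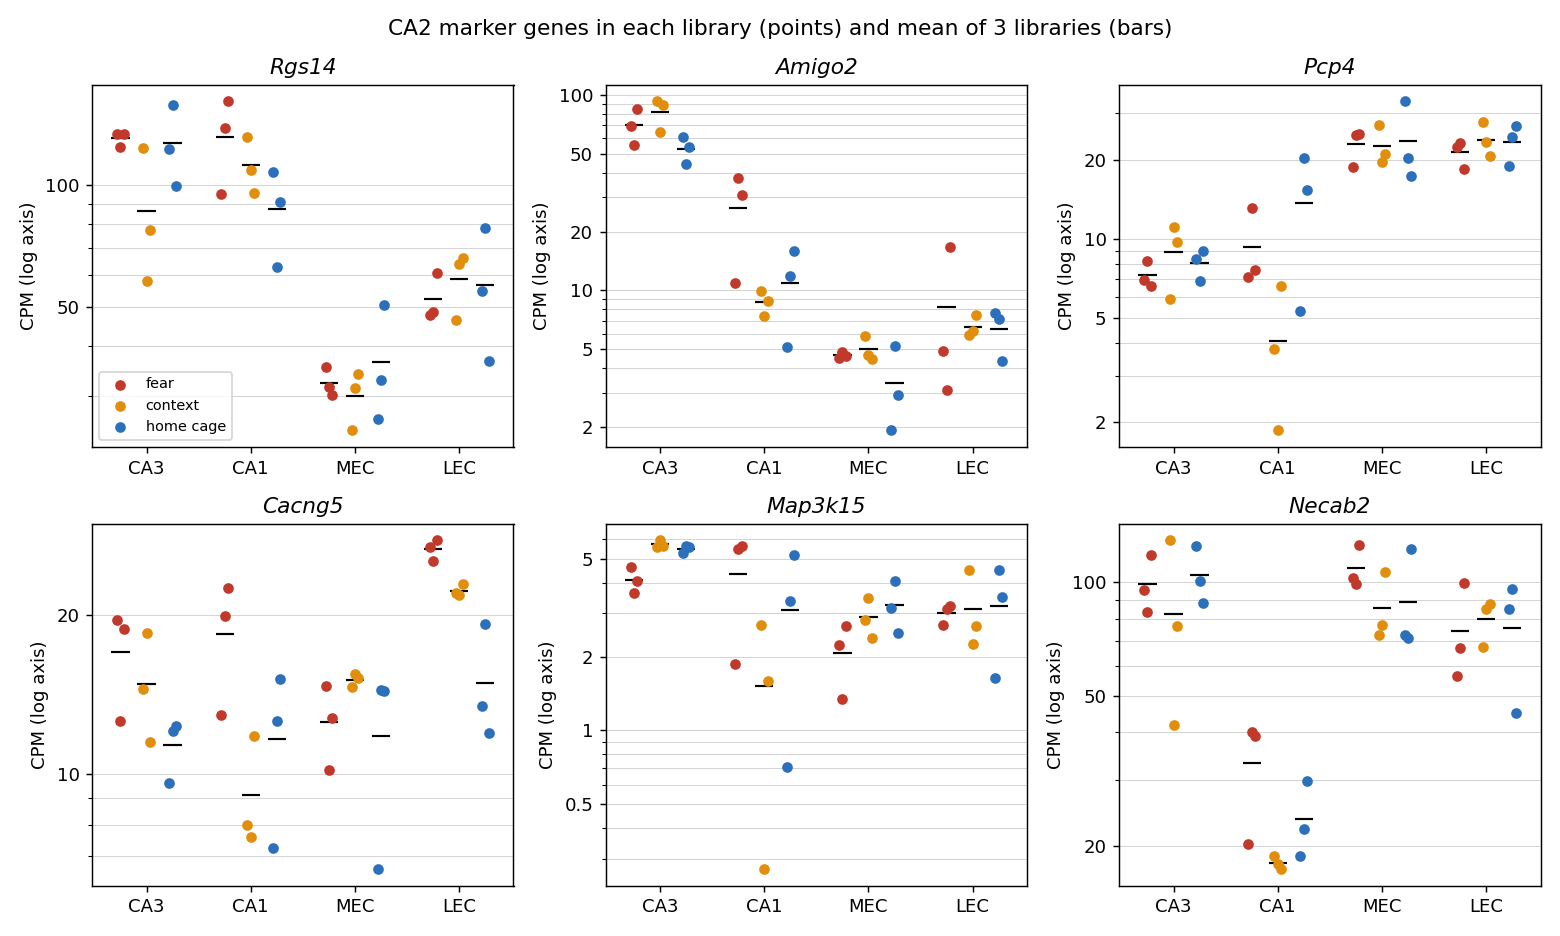
CPM (log axis) of each of the 6 genes in every library, by region and, within a region, fear, context and home cage from left to right. Points are libraries and bars are means of 3. Amigo2 and Necab2 sit higher in all CA3 libraries than in any CA1 library, Pcp4 sits highest in MEC and LEC, and the CA1 libraries are the most spread for Amigo2, Pcp4 and Map3k15.

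Levels of different genes were compared per kilobase of exon (RPKM from the TMM-scaled CPM). In CA3 the order was Necab2 (45.6 ± 13 RPKM, SD, n = 9 libraries), Rgs14 (27.1 ± 7.33), Amigo2 (21.6 ± 5.34), Pcp4 (7.89 ± 1.62), Cacng5 (3.75 ± 0.956) and Map3k15 (1.18 ± 0.187). In CA1 it was Rgs14 (26.0 ± 6.96 RPKM), Necab2 (11.9 ± 4.37), Pcp4 (8.79 ± 5.84), Amigo2 (4.86 ± 3.56), Cacng5 (3.41 ± 1.40) and Map3k15 (0.685 ± 0.475). Rgs14 and Amigo2 in CA3, and Necab2, Pcp4, Amigo2 and Cacng5 in CA1, lay within 1 SD of a neighbour in that order. On CPM without length, Rgs14 instead of Necab2 came first in CA3. Counting may have touched a pair of members: 13.9% of the exon bases of Map3k15 lie opposite exons of Pdha1, a far more abundant gene, and 23.7% of those of Pcp4 are shared with Igsf5 on the same strand. That Igsf5 entry comes from the annotation used here and is absent from the deposited count table, so the authors' counting may not have used it. The Map3k15 count was 0.170% to 3.78% of the Pdha1 count of the same library, and in CA1 context 2 the 7 Map3k15 counts stood beside 4109 of Pdha1. The strand setting of the counting is not given in the sources used here.

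CA3 against CA1 compared the levels of the 6 markers between the dissected fields. The part of the cut in a difference, and that of expression in CA3 or CA1 cells, was not tested. Amigo2, Necab2 and Map3k15 were higher in CA3, and Rgs14, Pcp4 and Cacng5 did not pass the test. Amigo2 averaged 68.2 ± 16.9 CPM in CA3 and 15.4 ± 11.2 CPM in CA1 (SD, n = 9 each), a log2 difference of 2.30 ± 0.26 (SE; edgeR quasi-likelihood test, Benjamini-Hochberg adjusted p = 5.67e-08). Necab2 averaged 95.5 ± 27.3 CPM in CA3 and 24.9 ± 9.15 CPM in CA1, a log2 difference of 1.98 ± 0.19 (adjusted p = 3.29e-09). Map3k15 averaged 5.11 ± 0.813 CPM in CA3 and 2.98 ± 2.07 CPM in CA1, with 0.89 ± 0.30 on the log2 scale (adjusted p = 0.0224), but its ranges overlapped.

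That made 3 of 6 members called, where 31.0% of the 17875 genes tested were called, and the median log2 difference was 0.54 over the members and -0.02 over all genes. Without context 2, without context 3 or without fear 1 in all 4 regions Map3k15 was not called (log2 0.73, 0.89 and 0.73, adjusted p = 0.0563, 0.0613 and 0.105), and the same held without home cage 2 and context 2 of both fields (0.74, adjusted p = 0.0706). The 95% intervals of the others on the log2 scale were -0.27 to 0.37 for Rgs14, -0.42 to 0.44 for Pcp4 and -0.13 to 0.50 for Cacng5, so a CA3 level of Rgs14 as far above CA1 as that of Amigo2 lay outside its interval. The CA3 to CA1 gap was present under each treatment: Amigo2 averaged 69.7 ± 14.3 CPM in CA3 and 26.5 ± 13.9 CPM in CA1 after fear, 82.0 ± 15.1 CPM in CA3 and 8.73 ± 1.28 CPM in CA1 after context, and 52.9 ± 8.25 CPM in CA3 and 11.0 ± 5.43 CPM in CA1 in the home cage (SD, n = 3 each).

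Against the entorhinal cortex the members went in both directions. In CA3 against MEC 4 of 6 were called, beside 38.4% of all genes: Amigo2 (log2 3.97 ± 0.28), Rgs14 (1.77 ± 0.16) and Map3k15 (0.91 ± 0.30) were higher in CA3 and Pcp4 (-1.51 ± 0.21) was lower. In CA3 against LEC 4 of 6 were called, beside 39.8% of all genes, with Amigo2 (3.26 ± 0.27) and Rgs14 (1.02 ± 0.16) higher in CA3 and Pcp4 (-1.50 ± 0.21) and Cacng5 (-0.54 ± 0.15) lower. Necab2 was called in neither, at 0.02 ± 0.18 against MEC and 0.31 ± 0.18 against LEC.

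In CA1 against MEC 4 of 6 were called, beside 43.6% of all genes, and in CA1 against LEC 5 of 6, beside 46.6%. Rgs14 was higher in CA1 than in MEC (1.72 ± 0.16) and LEC (0.96 ± 0.16), and so was Amigo2 (1.67 ± 0.27 and 0.95 ± 0.26). Pcp4 was lower in CA1 than in MEC (-1.52 ± 0.21) and LEC (-1.51 ± 0.21), as was Necab2 (-1.96 ± 0.19 and -1.66 ± 0.19). Cacng5 was lower in CA1 than in LEC (-0.73 ± 0.15) and was not called against MEC (-0.07 ± 0.15). Adjusted p of the calls in these 4 comparisons was at most 0.0144 (Map3k15 in CA3 against MEC), and that call was lost without context 3 (log2 0.87, adjusted p = 0.0534) or fear 2 (0.84, adjusted p = 0.0538), against 0.91 with all libraries.

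Within the entorhinal cortex, MEC against LEC, 2 of 6 were called, beside 17.4% of all genes, and both were lower in MEC: Rgs14 by -0.76 ± 0.16 (adjusted p = 0.000723) and Cacng5 by -0.66 ± 0.15 (adjusted p = 0.00211). Rgs14 averaged 33.1 ± 7.37 CPM in MEC and 55.8 ± 12.6 CPM in LEC, and Cacng5 13.2 ± 2.94 CPM in MEC and 21.3 ± 5.54 CPM in LEC (SD, n = 9 each). Amigo2 was at -0.71 ± 0.27 (unadjusted p under 0.05, adjusted p = 0.0651), and was called by DESeq2 (-0.72, adjusted p = 0.0432) and by edgeR without fear 1 (-0.79, adjusted p = 0.0464) or fear 2 (-0.85, adjusted p = 0.0290). The others, Pcp4, Map3k15 and Necab2, differed by -0.21 to 0.29.

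**Figure D2:**
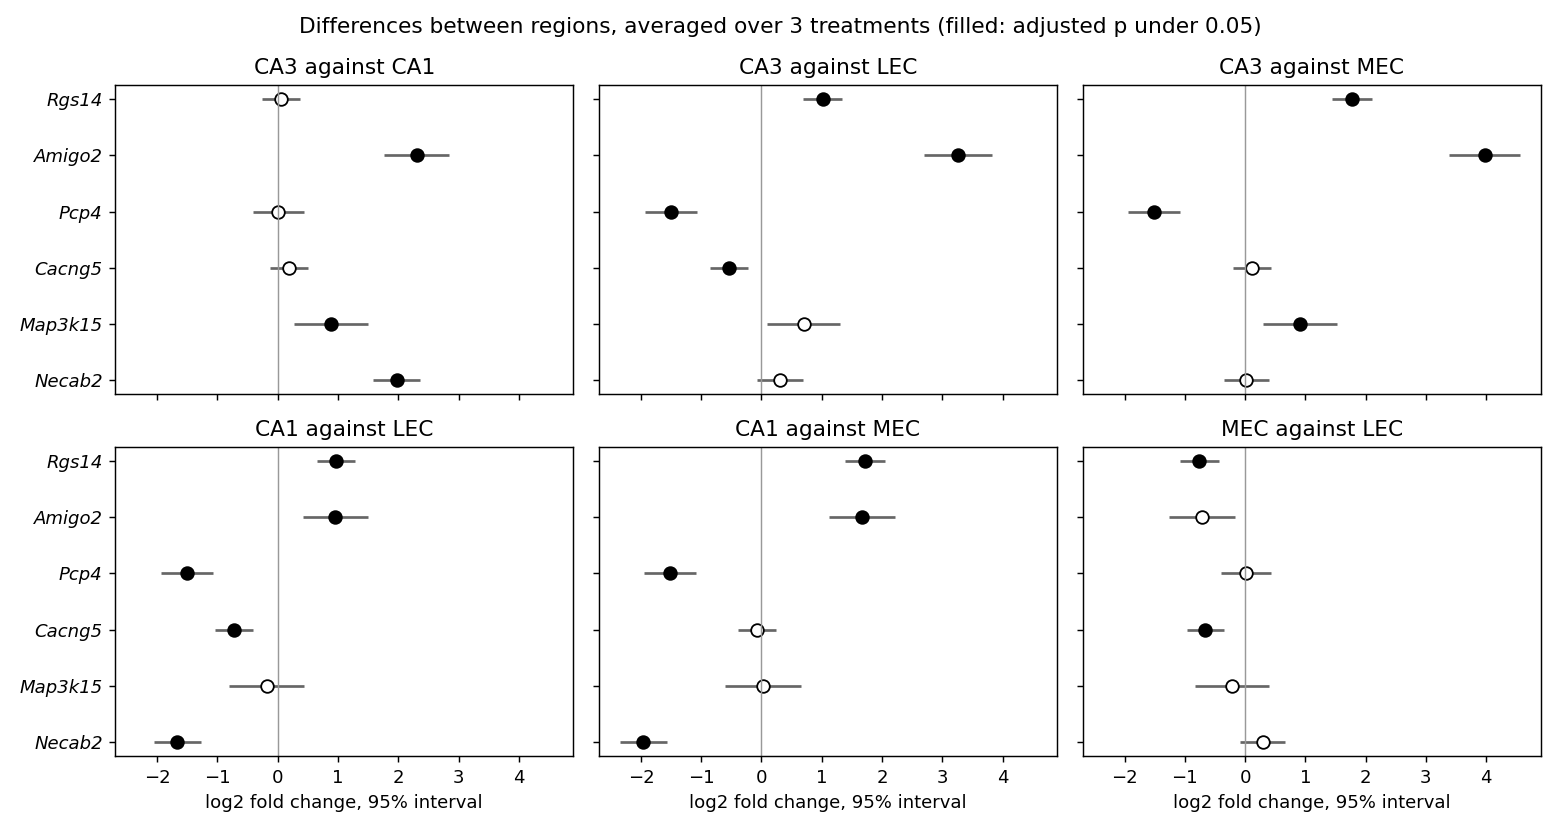
Log2 fold change of each member between regions, averaged over the 3 treatments, with its 95% interval, 1 panel per comparison. Filled points had an adjusted p under 0.05. Amigo2 and Necab2 lie near 2 in CA3 against CA1, Pcp4 lies near -1.5 in all 4 comparisons of a field with an entorhinal region, and Rgs14 lies at 0.05 between the fields.

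Set in order, Rgs14 ran CA3 and CA1, then LEC, then MEC, and only its first step was not called. Amigo2 ran CA3, CA1, then LEC and MEC, the last step not called by edgeR. Pcp4 had MEC and LEC above CA1 and CA3, with no call inside either pair, and Cacng5 had LEC above CA3, MEC and CA1, none of which differed from each other by the test. Necab2 had CA3, MEC and LEC above CA1, and Map3k15 had CA3 above CA1 and MEC, with LEC not placed. CA3 against LEC, its adjusted p was 0.0592 by edgeR, and it was called by DESeq2 (0.69, adjusted p = 0.0378) and by edgeR without context 1 (0.81, adjusted p = 0.0415).

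The treatments were compared within each region to ask whether the behaviour moved the members. In CA3 1 of 6 was called in context against home cage, beside 13.9% of the 16145 genes tested. Amigo2 had 92.5, 64.7 and 88.7 CPM in context libraries and 60.5, 44.1 and 54.0 CPM in home cage libraries, without overlap, and rose by 0.62 ± 0.18 on the log2 scale (adjusted p = 0.0476). No gene in that comparison had an adjusted p below 0.0450. Leaving out any 1 of the 9 CA3 libraries ended the Amigo2 call (log2 0.51 to 0.76, adjusted p = 0.0547 to 0.178), as did the fit of all 36 libraries (0.63, adjusted p = 0.285) and leaving out home cage 2 and context 2 (0.65, adjusted p = 0.293), with log2 differences about as large. Markers of blood (2 genes) summed to 15.7, 6.01 and 6.32 CPM in those context libraries and 26.4, 42.8 and 22.6 CPM in the home cage libraries, and dentate granule genes to 42.0, 187 and 55.0 CPM in context libraries and 71.8, 133 and 175 CPM in home cage libraries. The 80 cytosolic ribosomal protein genes summed to 7414 to 8493 CPM in context and 9305 to 14376 CPM in home cage libraries, interneuron genes (6) to 582 to 684 CPM in context and 434 to 484 CPM in home cage libraries, and deep cortical layer genes (7) to 209 to 259 CPM in context and 155 to 191 CPM in home cage libraries. The 10 CA2 genes outside the members summed to 589 to 642 CPM in context and 413 to 518 CPM in home cage libraries. Of these lists, dentate granule genes overlapped between the groups and the others did not, and the part of the lists in the Amigo2 value was not tested.

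Rgs14 had 124, 57.8 and 77.5 CPM in CA3 context libraries and 123, 158 and 99.8 CPM in home cage libraries (log2 -0.57 ± 0.24, adjusted p = 0.111), and Necab2 was at -0.36 ± 0.32 (adjusted p = 0.448). Context 1 was the highest of the context libraries for both genes. Without it both fell after context, Rgs14 by 0.91 ± 0.19 (adjusted p = 0.00741) and Necab2 by 0.82 ± 0.25 (adjusted p = 0.0275). That fit kept context 2, the lowest CA3 library of both genes (57.8 and 41.8 CPM), and the share of all genes called in it is not given here. Without home cage 2 and context 2, 0 members were called. In fear against home cage 0 of 6 members and 0.00619% of all genes were called in CA3 by edgeR. Cacng5 at 0.54 ± 0.22 and Map3k15 at -0.46 ± 0.21 were past an unadjusted p of 0.05, as were 3047 of the 16145 genes tested. In fear against context 0 of 6 members and 0.0% of genes were called. Rgs14 (0.57 ± 0.24) and Map3k15 (-0.51 ± 0.21) were the 2 members past an unadjusted p of 0.05, beside 3785 of the 16145 genes tested. Without context 1, Rgs14 was called there (0.93 ± 0.19, adjusted p = 0.0105).

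In CA1 0 of 6 members were called in any of the 3 comparisons by edgeR, beside 0.0% of the 16163 genes tested in each. The members nevertheless had their largest fitted differences there. In fear against context, 5 of 6 had a log2 difference of 0.88 or more, namely Amigo2 (1.61 ± 0.48), Map3k15 (1.48 ± 0.81), Pcp4 (1.2 ± 0.54), Cacng5 (1.02 ± 0.29) and Necab2 (0.88 ± 0.24), with unadjusted p of 0.00371 to 0.0999 and adjusted p of at least 0.846. The groups of Amigo2, Pcp4, Cacng5 and Necab2 did not overlap, and the median over the members was 1.11 and over all genes 0.01. How many of all genes also had groups without overlap was not counted, so the lack of overlap is given as a description only. Within CA1, fear 2 and fear 3 held the highest values of the 9 for Rgs14, Amigo2, Cacng5, Map3k15 and Necab2, while fear 1 lay within the range of the context and home cage libraries for all 6 members. In fear against home cage 3 members were past an unadjusted p of 0.05, as were 3553 of the 16163 genes tested. They were Rgs14 (0.59 ± 0.22), Amigo2 (1.29 ± 0.48) and Cacng5 (0.67 ± 0.29), with adjusted p of 0.161 to 0.201.

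Pcp4 had 3.81, 1.86 and 6.62 CPM in CA1 context libraries and 5.32, 20.3 and 15.3 CPM in home cage libraries. The groups overlapped through home cage 1, and the log2 difference was -1.75 ± 0.54 (unadjusted p = 0.00965, adjusted p = 0.13). Pcp4 was called lower after context in the fit of all 36 libraries (-1.73 ± 0.37, adjusted p = 0.0122) and without home cage 1 (-2.13 ± 0.45, adjusted p = 0.0495). The CA1 pyramidal list summed to 1781, 1810 and 1369 CPM in the context libraries and 1383, 612 and 706 CPM in the home cage libraries, so it was low where Pcp4 was high. Ribosomal protein genes summed to 10821 to 12094 CPM in context and 14929 to 20965 CPM in home cage libraries, and interneuron genes to 597 to 735 CPM in context and 359 to 468 CPM in home cage libraries. Deep cortical layer genes summed to 352 to 441 CPM in context and 251 to 309 CPM in home cage libraries. Thalamic genes had 88.0 to 103 CPM in context and 62.1 to 81.8 CPM in home cage libraries. The 10 CA2 genes outside the members had 498 to 556 CPM in context and 303 to 414 CPM in home cage libraries. CA3 pyramidal genes had 83.6 to 84.3 CPM in context and 90.7 to 186 CPM in home cage libraries. Dentate granule genes overlapped between the groups, with 167, 123 and 402 CPM in context libraries and 258, 309 and 506 CPM in home cage libraries. Context 1 and context 2 were the lowest CA1 libraries for both these genes and Pcp4. The part of these lists in the Pcp4 value was not tested.

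In LEC 0 of 6 members and 0.0% of the 16402 genes tested were called in each comparison by edgeR. Cacng5 had 26.9, 25.3 and 27.7 CPM in fear libraries, 22.0, 21.8 and 22.9 CPM in context libraries and 13.4, 19.2 and 12 CPM in home cage libraries. The 3 groups did not overlap. Its log2 difference was 0.82 ± 0.17 in fear against home cage (unadjusted p = 0.000538, adjusted p = 0.491), 0.55 ± 0.17 in context against home cage (unadjusted p = 0.00850) and 0.27 ± 0.17 in fear against context. DESeq2 called the first of these (adjusted p = 0.0101). Ribosomal protein genes summed to 7956 to 10575 CPM in fear and 11035 to 13264 CPM in home cage libraries, and astrocyte genes (4) to 1267 to 1409 CPM in fear and 1432 to 1505 CPM in home cage libraries, without overlap, and their part in the Cacng5 value was not tested. The other members had log2 differences of -0.16 to 0.34 in LEC.

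In MEC 0 of 6 members were called in any comparison by edgeR, beside 0.57% of the 16314 genes tested in context against home cage, 9.56% in fear against home cage and 0.0% in fear against context. Map3k15 in fear against home cage (-0.65 ± 0.29, adjusted p = 0.148) was past an unadjusted p of 0.05, as were 4733 of the 16314 genes tested. Necab2 had 103, 99.1 and 126 CPM in MEC fear libraries and 72.4, 71.0 and 122 CPM in home cage libraries (0.28 ± 0.20, adjusted p = 0.371). Without home cage 3, both were called, Necab2 at 0.59 ± 0.15 (adjusted p = 0.0106) and Map3k15 at -0.81 ± 0.29 (0.0479).

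**Figure D3:**
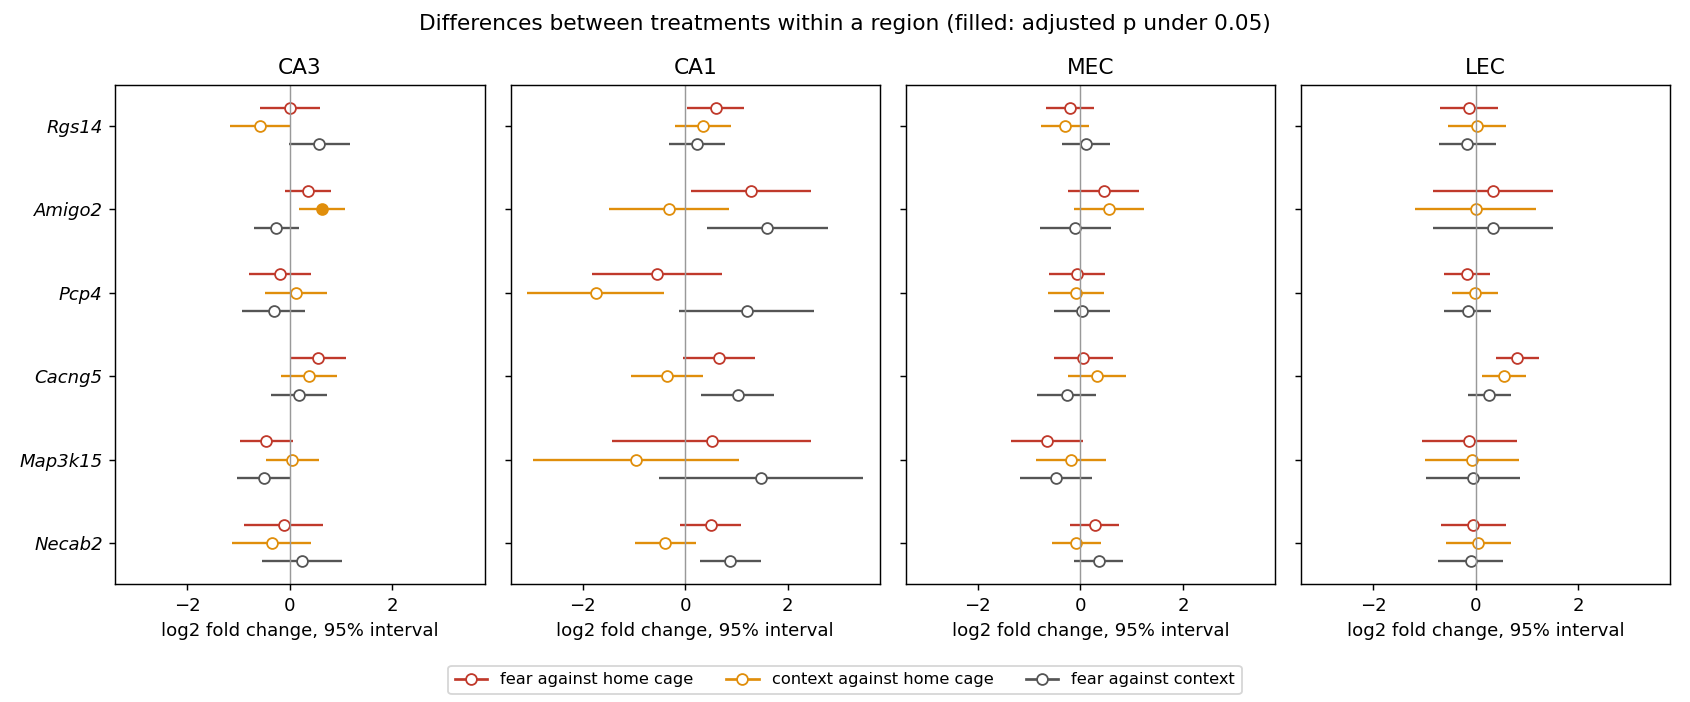
Log2 fold change of each member between treatments within a region, with its 95% interval, 1 panel per region. The intervals use 6 residual degrees of freedom, fewer than the test, and can include 0 where an unadjusted p is under 0.05. Colours mark fear against home cage, context against home cage and fear against context, and filled points had an adjusted p under 0.05. The single filled point is Amigo2 in CA3 (0.62), the widest intervals are those of CA1, and Cacng5 in LEC lies at 0.82 after fear and 0.55 after context.

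Whether the treatment effect differed between the fields was tested as an interaction, CA3 minus CA1. For context against home cage 0 of 6 members and 0.0% of genes passed by edgeR. Pcp4 (1.86 ± 0.52, unadjusted p = 0.00122, adjusted p = 0.105) and Rgs14 (-0.92 ± 0.38, adjusted p = 0.166) were past an unadjusted p of 0.05, as were 4073 of the 17875 genes tested. DESeq2 called the Pcp4 interaction (1.89 ± 0.49, adjusted p = 0.0305), and so did edgeR without home cage 1 (2.30 ± 0.46, adjusted p = 0.0131). For fear against home cage 0 of 6 members and 0.0% of genes passed. No member was past an unadjusted p of 0.05, beside 712 of the 17875 genes tested.

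How the members varied together was read over the 9 libraries of each field, on log2 CPM, with exact permutation p adjusted over the 30 pairs of both fields. In CA1 14 of 15 pairs were positively correlated and 6 passed. The closest were Amigo2 and Necab2 (Pearson's r = 0.94, Spearman's rho = 0.93, exact permutation p = 0.000378, adjusted p = 0.00566) and Amigo2 and Cacng5 (r = 0.92, rho = 0.95, exact permutation p = 0.000284, adjusted p = 0.00566). Cacng5 with Necab2 (r = 0.88), Cacng5 with Map3k15 (0.81), Amigo2 with Map3k15 (0.81) and Pcp4 with Map3k15 (0.78) also passed, with adjusted p of 0.0150 to 0.0422 by the exact permutation test. By Spearman's rho and the same test, Pcp4 with Map3k15 did not pass (rho = 0.73, adjusted p = 0.0849). Map3k15 with Necab2 passed by rho instead (0.92, adjusted p = 0.00984). Without the 2 libraries farthest from the median of the first-named gene, r of the 6 pairs that passed by Pearson's r was 0.62 to 0.84. With each treatment's mean subtracted 4 of the 6 passed, and Cacng5 with Necab2 and with Map3k15 did not (adjusted p = 0.0508 and 0.0516 by the permutation test). The orderings ignored the treatment groups, so after the subtraction this p is not exact and may be too small. Rgs14 stood outside this group, with r of -0.40 to 0.46 with the other 5.

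In CA3 4 of 15 pairs were positively correlated and 3 passed, Rgs14 with Necab2 (r = 0.84, rho = 0.50, adjusted p = 0.0364), Rgs14 with Pcp4 (r = -0.84, rho = -0.78, adjusted p = 0.0161) and Pcp4 with Necab2 (r = -0.82, rho = -0.80, adjusted p = 0.0279), all by the exact permutation test. By Spearman's rho none of the CA3 pairs passed, against 6 in CA1, which were not all the same pairs as by Pearson's r. Without the 2 libraries farthest from the median the 3 values of r were 0.19, -0.56 and -0.57, and the first of them rests on context 2 and context 3. With each treatment's mean subtracted 5 CA3 pairs passed, the same 3 and Amigo2 with Necab2 (r = 0.75, adjusted p = 0.0427) and Cacng5 with Map3k15 (r = 0.79, adjusted p = 0.0370, permutation test), which had r of 0.15 and -0.22 before. As in CA1, the p after the subtraction is not exact and may be too small. The difference between the fields was not tested.

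**Figure D4:**
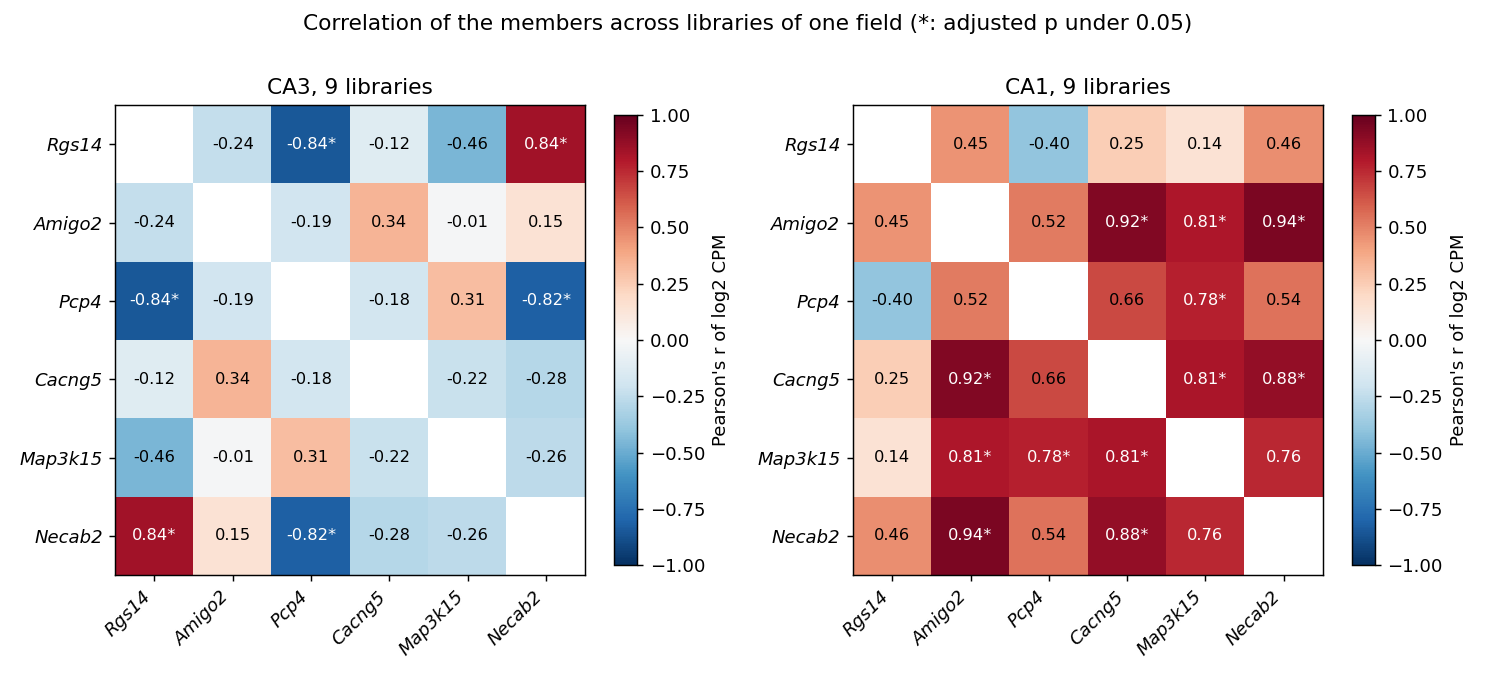
Pearson's r of log2 CPM between the members over 9 CA3 libraries (left) and 9 CA1 libraries (right). Stars mark an adjusted p under 0.05 by the exact permutation test. In CA1 Amigo2, Cacng5, Map3k15 and Necab2 have r of 0.76 to 0.94 with each other, and in CA3 the marked pairs join Rgs14, Pcp4 and Necab2.

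The CA3 pyramidal list, which shares no gene with the members, also varied among the CA1 libraries. It summed to 96.5, 228 and 166 CPM in fear libraries, 84.3, 83.6 and 83.7 CPM in context libraries and 90.7, 94.2 and 186 CPM in home cage libraries. The 3 libraries with the highest sums, fear 2, home cage 3 and fear 3, were also the 3 highest for Amigo2 (37.7, 15.9 and 30.8 CPM), Necab2 (40.1, 29.8 and 39.2 CPM), Cacng5 (19.9, 15.2 and 22.5 CPM) and Map3k15 (5.48, 5.18 and 5.65 CPM), but not for Rgs14 or Pcp4. The sums fell into separate clusters, so no correlation over the 9 libraries is given. Avpr1b, the vasopressin 1b receptor and a CA2 marker outside the 6, had 1.07 and 1.71 CPM in CA1 fear 2 and fear 3 and 0.147 CPM in context 1, and no counts in the other 6 CA1 libraries. It is 1 of 10 CA2 genes looked at outside the 6, and these did not all share its pattern. Ptpn5, Sostdc1, Vit and Acan were also highest in fear 2 and fear 3 among the CA1 libraries. Fgf2, Ntf3, Nr3c2, Stard5 and Strip2 were not, and Ntf3 was highest in home cage 3 (11.9 CPM), where Avpr1b had no counts. The part of neighbouring tissue in the spread of the CA1 libraries was not tested. Over 9 pairs of CA3 and CA1 libraries of the same treatment and number, r of the members was -0.55 to 0.21. Adjusted p was at least 0.716 by the exact permutation test. Over all genes, the same-numbered libraries of these fields deviated together under fear only. These values of r therefore cannot show whether the fields of a mouse varied together.

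**Figure D5:**
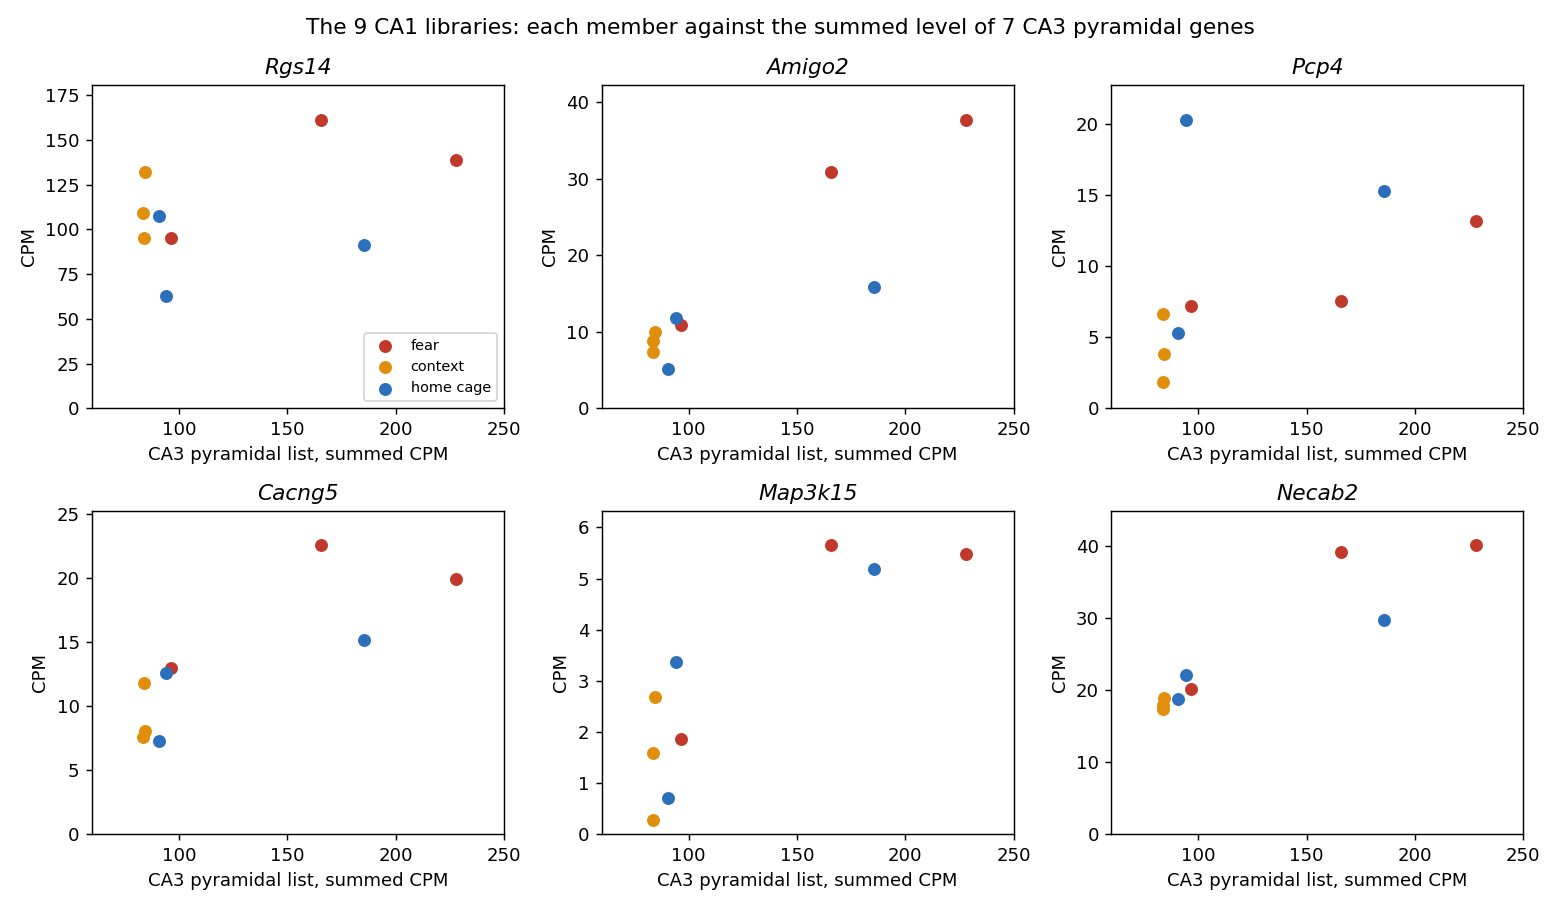
CPM of each member (vertical axis) against the summed CPM of the 7 CA3 pyramidal genes (horizontal axis) in the 9 CA1 libraries, coloured by treatment. The 3 libraries at 166 to 228 CPM on the horizontal axis have the 3 highest values of Amigo2, Cacng5, Map3k15 and Necab2, and Rgs14 and Pcp4 are spread over both clusters.

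Because Amigo2, Necab2 and Cacng5 were the closest trio among the CA1 libraries, their promoters are shown, from 250 bases before to 50 after the start, 5′ to 3′ on the gene's strand (RefSeq, GRCm38.p6). Capitals mark CCAAT or its reverse complement ATTGG, the CCAAT box.
Amigo2, chr15:97247238-97247537, minus strand: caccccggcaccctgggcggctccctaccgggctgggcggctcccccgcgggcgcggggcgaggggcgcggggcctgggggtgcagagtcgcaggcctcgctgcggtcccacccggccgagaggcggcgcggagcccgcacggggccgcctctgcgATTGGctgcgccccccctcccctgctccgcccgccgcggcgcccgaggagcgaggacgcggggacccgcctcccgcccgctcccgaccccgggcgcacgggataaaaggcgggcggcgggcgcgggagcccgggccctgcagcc
Necab2, chr8:119446469-119446768, plus strand: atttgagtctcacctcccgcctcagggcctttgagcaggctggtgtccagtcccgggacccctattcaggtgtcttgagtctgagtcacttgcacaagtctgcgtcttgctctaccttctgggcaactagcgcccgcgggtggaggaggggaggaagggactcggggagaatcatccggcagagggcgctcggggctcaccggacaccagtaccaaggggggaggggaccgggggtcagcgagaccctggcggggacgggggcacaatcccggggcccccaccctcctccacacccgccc
Cacng5, chr11:107915006-107915305, minus strand: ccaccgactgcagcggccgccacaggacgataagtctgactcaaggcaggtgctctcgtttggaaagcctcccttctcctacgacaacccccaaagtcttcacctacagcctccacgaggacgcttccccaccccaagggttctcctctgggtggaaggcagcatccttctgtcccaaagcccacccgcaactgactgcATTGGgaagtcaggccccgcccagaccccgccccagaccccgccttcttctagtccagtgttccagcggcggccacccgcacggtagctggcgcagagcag
Amigo2 had 1 such match, at base 157 of 300, Cacng5 had 1, at base 200, and Necab2 had none. A second Cacng5 start in the table (chr11:107911313-107911612, not shown) held none either. On either strand, 37.4% of the 32851 promoters in the table held it. Neither TGTTCT or AGAACA, a steroid receptor motif, nor TGACG or CGTCA, the core of the cAMP response element, occurred in the 3, and these letters occurred in 19.0% and 20.8% of all promoters. G and C made up 83.3% of the Amigo2 sequence, 66.7% of the Necab2 sequence and 63.3% of the Cacng5 sequence, against a median of 52.7% over the table. Promoters were matched for 4 of the 6 members.

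Among 10 other CA2 genes, 6 were called higher and 1 lower in CA3 against CA1, beside the 31.0% of all genes, with a median log2 difference of 0.63. Vit, which encodes the matrix protein vitrin, averaged 16.9 CPM in CA3 and 2.34 CPM in CA1 without overlap (log2 2.92 ± 0.27, adjusted p = 1.44e-09). Stard5, a sterol-binding protein gene, averaged 26.1 CPM in CA3 and 11.8 CPM in CA1, also without overlap (1.14 ± 0.14), and Strip2 144 CPM in CA3 and 75.0 CPM in CA1 (0.97 ± 0.15). Avpr1b averaged 1.49 CPM in CA3, with counts in all 9 libraries, and 0.325 CPM in CA1 (adjusted p = 1.39e-05). Sostdc1 (1.48 ± 0.30) and Ptpn5 (0.29 ± 0.11) were the other higher genes and Ntf3, a neurotrophin gene, the lower one (-0.79 ± 0.29), all 3 named after their values were seen.

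Of 14 family relatives of the members, 2 were called higher and 3 lower in CA3 against CA1 (median -0.10), a share near the 31.0% of all genes. Map3k5, the ASK1 kinase, was higher (1.11 ± 0.10), as was Cacng2, stargazin (0.61 ± 0.10), whereas Cacng3 (-0.78 ± 0.11) and Cacng7 (-0.49 ± 0.10) were lower. Of 18 genes for binding partners and pathways, 2 were called higher and 4 lower (median -0.13), likewise near the 31.0%. The G protein subunits that RGS14 binds were higher for Gnai1 (0.57 ± 0.10) and Gnao1 (0.33 ± 0.08), and Adora2a, the adenosine receptor that NECAB2 binds, was lower at 0.5 CPM in CA3 and 0.945 CPM in CA1 (-1.05 ± 0.30).

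Between treatments these lists were called in CA3 and MEC, and in the 9 other comparisons within a region 0 of their genes were called by edgeR, with 0 to 7 per list past an unadjusted p of 0.05. Of all genes, 207 of 16402 (LEC, fear against context) to 3785 of 16145 (CA3, fear against context) were past it in those comparisons. In CA3, context against home cage, 1 of 10 other CA2 genes, 2 of 14 relatives and 4 of 18 partners were called, beside the 13.9% of all genes, with adjusted p of 0.0450 to 0.0486, where no gene of the comparison was below 0.0450. Rgs12, the closest relative of Rgs14, fell by 0.74 ± 0.16, Gnai2 fell by 0.67 ± 0.18, and Gnai3 (0.56 ± 0.14) and Grm5 (0.68 ± 0.19), which encodes mGluR5, rose. The other called genes, named after their values were seen, were Nr3c2 (0.60 ± 0.18), Map3k5 (0.58 ± 0.17) and Gnai1 (0.70 ± 0.21), which rose as well. In MEC, fear against home cage, 3 of 9 other CA2 genes and 5 of 14 relatives rose and none fell, and of 18 partners 1 rose and 1 fell, beside the 9.56% of all genes. Those of smallest p were Acan, the perineuronal net proteoglycan that surrounds CA2 cells (1.35 ± 0.20, adjusted p = 0.00178), Cacng2 (0.74 ± 0.11), Cacng3 (0.51 ± 0.11) and Gnao1 (0.39 ± 0.09). The other called genes, named after their values were seen, were Ptpn5, Strip2, Amigo1, Pcp4l1 and Necab1, which rose, and Calm2, which fell. Oligodendrocyte genes (5) summed to 2155, 2989.6 and 2771 CPM in these fear libraries and 2038, 1395 and 1394 CPM in the home cage libraries. The 10 other CA2 genes summed to 227 to 254 CPM in fear and 152 to 208 CPM in home cage libraries. Summed levels also did not overlap for 6 other lists. Interneuron genes had 784 to 837 CPM in fear and 593 to 639.9 CPM in home cage libraries, thalamic genes 55.9 to 69.6 CPM in fear and 39.4 to 46.2 CPM in home cage libraries, and endothelial genes 34.4 to 58.8 CPM in fear and 22.1 to 31.7 CPM in home cage libraries. CA3 pyramidal genes had 133 to 163 CPM in fear and 92.7 to 116 CPM in home cage libraries, dentate granule genes 22.3 to 24.3 CPM in fear and 16.2 to 20.7 CPM in home cage libraries, and deep cortical layer genes 210.5 to 299 CPM in fear and 310.3 to 375 CPM in home cage libraries. The part of these lists in the values was not tested. Acan was also called in MEC after context (0.98 ± 0.20, adjusted p = 0.0473). With all libraries edgeR called none of the 6 members in MEC, and without home cage 3 it called Necab2 and Map3k15. The difference from their relatives was not tested.

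The genes most like each member were ranked by Pearson's r of log2 CPM among 12743 genes, as a description over libraries that share regions. Over all 36 libraries Rgs14 was nearest to Wscd2 (r = 0.96), Camk2a (0.96) and Kcnip2 (0.94), and Amigo2 to Tgfb2 (0.96), Ccbe1 (0.95) and Lats2 (0.94). Pcp4 was nearest to Gpc3 (0.91), Cntn5 (0.91) and Dtl (0.90), and Necab2 to Il34 (0.92), Ap2m1 (0.92) and Lnx1 (0.92). Cacng5 and Map3k15 had lower values, with Tpm3 (0.74), Cdhr1 (0.72) and Slc39a6 (0.71) for Cacng5 and Adamts3 (0.76), Ccdc3 (0.74) and Wdhd1 (0.74) for Map3k15. Over the 18 libraries of CA3 and CA1 with each region's mean subtracted, the nearest were Rnf41 (0.94), Mgat4b (0.93) and Calm3 (0.92) for Rgs14, Nrip3 (0.90), Golm1 (0.89) and Tmem215 (0.89) for Amigo2, and Wdhd1 (0.92), Kctd4 (0.92) and Cdh9 (0.92) for Pcp4. They were Ablim1 (0.85) and Cpne4 (0.84) for Cacng5, Ccdc3 (0.89), Syce2 (0.86) and Adamts3 (0.84) for Map3k15, and Trnp1 (0.87), Homer3 (0.86) and Syndig1l (0.81) for Necab2. Homer3 belongs to the CA3 pyramidal list.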

How the data were processed

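PolyA RNA was extracted with TRIzol and made into libraries with the Illumina TruSeq Stranded mRNA kit, per the labels' protocols. The authors deposited raw counts of reads for each gene. Per the submitters' processing notes the tools were Trimmomatic 0.33, STAR 2.7.10b and HTSeq 2.0.1, with mm10 as the build. Neither the annotation release nor the strand setting is given in the sources used here, and the labels name no batch or date. Identifiers were matched to GENCODE M21 (GRCm38), which gave 35449 of 37315 a symbol. The members and lists were chosen with earlier results of these data known.

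Groups came from the tissue and treatment labels. After filterByExpr and TMM scaling, counts were tested with edgeR 4.0.16 (robust quasi-likelihood, R 4.3.3): 1 fit of 36 libraries and 12 groups for regions and interactions (17875 genes, 24 residual degrees of freedom, biological coefficient of variation 0.21) and 1 fit of 9 libraries per region for treatments (6 residual degrees of freedom, 0.143 to 0.234). The threshold for a call was 0.05 on the Benjamini-Hochberg adjusted p, taken over all genes tested. SE are log2 fold changes divided by the root of F. Log2 CPM used a prior count of 2. No 2 replicates were as close as sampling noise alone would make them. Correlations used all 362880 orderings of 9 libraries. The procedure was tested on simulated data. Alternatives were RLE scaling, no filter on low counts, DESeq2 1.42.0, a replicate block, leaving out each replicate, leaving out home cage 2 and context 2 of both fields, 1 fit of all libraries for treatments, a prior count of 0.5, and correlations less treatment means.

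Named list genes were the 4 of smallest p in each of 3 lists in CA3 against CA1, and the 4 of smallest p over the 3 lists between treatments, of which the called ones are printed. Of the genes these rules select, 2 are not reported here. Likeness kept genes with a mean log2 CPM of at least 1.

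Same-numbered libraries deviated together, with every correlation above 0.1 over 11270 genes, in 2 of 12 comparisons between treatments (CA1 fear with home cage and MEC context with home cage) and in 4 of 18 between regions. In the other comparisons the numbers were not read as pairs, except in the replicate block and in the r of same-numbered CA3 and CA1 libraries.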

Additional observations from a re-analysis of the deposited data

Results flagged for a closer look

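Of 24 sets of 9 libraries (6 members in 4 regions), 2 held a library far from the others, where chance flags about 1 in 20 sets. Rgs14 in MEC home cage 3 had 50.4 CPM, and the next MEC library had 35.5 CPM. Amigo2 in LEC fear 3 had 16.7 CPM, and the next LEC library had 7.65 CPM.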

How the results depend on the processing

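Of 23 calls of members between regions or treatments, 20 were kept under every alternative run, 3 were lost under at least 1 (Amigo2 in CA3 context against home cage, Map3k15 in CA3 against CA1 and against MEC), and none reversed. The number of members called in CA3 context against home cage was 0 in the fit of all 36 libraries and without home cage 2 and context 2, and 0 to 2 when 1 library was left out, against 1. The following counts were 0 in the report. In CA1 context against home cage it was 1 in the fit of all 36 libraries and 0 to 1 with 1 library left out (without home cage 1). For the context interaction it was 1 with DESeq2 and 0 to 1 with 1 number of a treatment left out. In CA3 fear against context it was 0 to 1 with 1 library left out. In LEC fear against home cage it was 1 with DESeq2. In MEC fear against home cage it was 1 with the replicate block and 0 to 2 with 1 library left out, and in MEC fear against context it was 1 with the replicate block. Necab2 was the gene called with the block (adjusted p = 0.0226 and 0.0350), and with the block Map3k15 was also called in CA3 against LEC (0.78, adjusted p = 0.0342). The block changed no other count by more than 1.5 times. DESeq2 called 0 members in the other comparisons between treatments in which edgeR called 0. In CA3 5 pairs of members were correlated after treatment means were subtracted, against 3, by a permutation p that is not exact after the subtraction. In CA3 the order by level without length put Rgs14 at rank 1, Necab2 at 2, Cacng5 at 4 and Pcp4 at 5. Map3k15, with 7 to 236 counts per library in CA1, is the member that depth limits most. The longest transcript of Necab2 holds 63.6% G and C, more than 99.3% of genes tested, and no correction for GC was run.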
